A study of Mus musculus with 12 samples.

Results

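CD36 and 9 other scavenger receptor genes were followed through RAW264.7 cells, a mouse macrophage-like cell line, by RNA sequencing. The members were taken by symbol from the table of gene values: Cd36, Scarb1, Scarb2, Msr1, Marco, Cd68, Olr1, Clec7a, Mrc1 and Cd163. All 10 were found among 31719 symbols. The 12 libraries formed 4 groups of 3. One group was left untreated, one received anti-CD36 antibody diluted 1 in 100, one received LPS (lipopolysaccharide of the bacterial outer membrane, 50 ng/ml), and the last received both at the same doses. The genotype label of all 4 groups was wild type (WT). The labels gave no treatment time and did not say that replicates were separate cultures, so the p-values cover only the spread between these libraries. No group with an isotype control antibody was among the samples used here, so binding of CD36 and other properties of the antibody cannot be told apart.

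Scavenger receptors are surface or lysosomal proteins that bind modified lipoproteins, microbial products, dying cells and other polyanionic or lipid ligands, and most were first studied in macrophages. CD36, SR-BI (Scarb1) and LIMP-2 (Scarb2) form class B, whose members cross the membrane at both ends: CD36 takes up oxidised LDL and long-chain fatty acids, SR-BI exchanges cholesterol with HDL, and LIMP-2 carries enzymes to lysosomes. Msr1 encodes SR-A and Marco its relative, both collagen-like trimers that bind acetylated LDL and bacteria. Olr1 encodes LOX-1, a lectin-like receptor for oxidised LDL, Clec7a encodes dectin-1, a receptor for fungal beta-glucan, and Mrc1 the mannose receptor. Cd68 encodes a heavily glycosylated protein of late endosomes and lysosomes, and Cd163 the haemoglobin-haptoglobin receptor.

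RefSeq start sites (build GRCm38.p6) were matched for 8 of the 10 members, and the 250 bases before the start are shown for 3 members whose level was higher with LPS than without it (Cd36, Olr1, Clec7a) and for 2 whose level was lower (Cd68, Scarb2). The search covered 4 motifs on both strands: AGGTCA, the half-site of nuclear receptors such as PPARs; TGANTCA, bound by AP-1; GAGGAA, a core bound by PU.1; and the NF-kB consensus. Capitals mark every match. All 5 genes lie on the minus strand, and each sequence reads 5′ to 3′ towards the gene. The windows are chr5:17835897-17836146 for Cd36, chr6:129507166-129507415 for Olr1, chr6:129472780-129473029 for Clec7a, chr11:69666171-69666420 for Cd68 and chr5:92505658-92505907 for Scarb2.
Cd36: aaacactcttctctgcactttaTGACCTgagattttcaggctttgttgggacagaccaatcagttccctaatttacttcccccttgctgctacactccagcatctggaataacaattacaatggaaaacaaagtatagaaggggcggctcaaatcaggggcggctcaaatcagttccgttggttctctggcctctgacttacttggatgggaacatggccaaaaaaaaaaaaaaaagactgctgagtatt
Olr1: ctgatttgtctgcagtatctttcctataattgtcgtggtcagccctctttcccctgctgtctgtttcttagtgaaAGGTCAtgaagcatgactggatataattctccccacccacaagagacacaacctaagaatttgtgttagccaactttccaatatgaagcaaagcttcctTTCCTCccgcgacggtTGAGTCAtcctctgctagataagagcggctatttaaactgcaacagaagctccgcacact
Clec7a: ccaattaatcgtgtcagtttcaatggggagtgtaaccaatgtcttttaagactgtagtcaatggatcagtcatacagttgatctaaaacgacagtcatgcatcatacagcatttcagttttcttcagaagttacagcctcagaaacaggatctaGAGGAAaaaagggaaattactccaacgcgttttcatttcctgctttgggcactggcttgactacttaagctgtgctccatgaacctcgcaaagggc
Cd68: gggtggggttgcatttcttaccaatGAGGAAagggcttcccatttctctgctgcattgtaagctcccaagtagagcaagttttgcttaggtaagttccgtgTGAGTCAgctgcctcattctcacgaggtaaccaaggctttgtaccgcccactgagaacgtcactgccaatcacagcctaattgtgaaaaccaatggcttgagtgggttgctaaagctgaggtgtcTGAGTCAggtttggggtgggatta
Scarb2: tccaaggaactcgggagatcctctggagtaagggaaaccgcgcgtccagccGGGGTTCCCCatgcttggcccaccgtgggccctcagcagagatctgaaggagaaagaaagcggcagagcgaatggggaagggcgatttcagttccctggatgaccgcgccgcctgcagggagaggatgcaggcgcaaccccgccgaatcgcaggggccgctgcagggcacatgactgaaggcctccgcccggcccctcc

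Positions are those of the first base of a match, counted back from the start. In Cd36 the capitals mark AGGTCA read on the opposite strand, at −228. In Olr1 they mark AGGTCA at −175, GAGGAA on the opposite strand at −76 and TGANTCA at −60, and in Clec7a GAGGAA at −96. In Cd68 they mark GAGGAA at −225 and TGANTCA at −149 and −24, and in Scarb2 the NF-kB consensus at −199. These matches did not overlap each other. Among 32851 promoter windows of this length, 14% held AGGTCA, 6.75% TGANTCA, 23.3% GAGGAA and 7.25% the NF-kB consensus, and a match describes letters, not binding. The RefSeq starts of Cd36 and Scarb2 lie inside the longer gene models of the GENCODE M21 annotation, so these windows belong to 1 of several possible starts. Clec7a has a second RefSeq start a few bases away, whose window holds the same match.

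Library depth, recovered from the steps of the values, ran from 30070450 to 54137810 fragments. FPKM (fragments scaled to gene length and to library size) allows levels of different genes to be compared, and each library held 14212 to 14878 genes above 0. The 10 macrophage markers listed, among them Lyz2 and Csf1r, summed to between 3489 and 6702 FPKM per library. Most of this sum was Lyz2, at group means of 3140 to 4054, so it says little about the others. With LPS 5 of the 9 markers tested were called higher and 2 lower, among the latter Fcgr3, from 3.55 ± 1.01 to 0.94 ± 0.155. Fcgr3 reached the level needed for a test only through libraries without LPS, so it had to be lower with LPS. Over all genes tested, 16.6% were called higher and 33.1% lower. Mertk was near 0 in all libraries, at a highest group mean of 0.0222 FPKM. Of 20 markers of other cell types, 0 reached the level needed for a test and 9 stood at 0 in every library. Their summed level was 0.448 to 0.671 FPKM in untreated libraries, 0.521 to 0.939 with the antibody, 0.932 to 1.23 with LPS and 1.12 to 1.58 with both, led by Pecam1 at 0.607. This small sum moved with LPS, and its part in the results was not tested. In bulk RNA a lower level from fewer cells of a kind and from less RNA per cell cannot be told apart.

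Cd36 (chromosome 5, 17781690 to 17888801, minus strand, in the GRCm38 build of GENCODE M21) was nearly silent in resting cells and rose with LPS, and further when the antibody was added to LPS. It stood at 0.123, 0.195 and 0.193 FPKM in untreated replicates 1 to 3 and at 0.411, 0.471 and 0.256 with the antibody alone. With LPS it stood at 4.40, 5.85 and 7.33, and with LPS and the antibody at 10.4, 10.9 and 12.3. No 2 of the 4 groups overlapped, and every library with LPS lay above every library without it. The lowest value rested on few molecules: untreated libraries held 21 to 25 Cd36 fragments each, against 511 to 892 with LPS and 1380 to 2150 with both, so that counting error alone gives a coefficient of variation of 21.8% at the lowest. The mean was 34.4 times the untreated mean with LPS, and 1.92 times the LPS mean with both.

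On the scale used for the tests, differences in log2(FPKM + 1), Cd36 was 2.53 higher with LPS than without (SE 0.14, limma adjusted p = 3.06e-08) and 0.85 higher with both than with LPS (SE 0.14, adjusted p = 0.00214). Both calls held in all 22 alternative settings. The added 1 holds down a change that starts near 0, and with 0.1 in its place the LPS change was 4.45. With the antibody alone the mean of Cd36 was 2.23 times the untreated mean, a difference of 0.23 (95% interval −0.06 to 0.53, adjusted p = 0.337). With the trend on GC content and gene length taken out this difference was 0.35 and passed (adjusted p = 0.0478), and with 0.1 added it was 0.81 and did not (adjusted p = 0.122).

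The 2 class B relatives of Cd36 moved the other way with LPS. Scarb1 (chromosome 5, 125277087 to 125341094) stood at 10.8, 10.5 and 9.57 FPKM in untreated cells, at 9.88, 8.80 and 9.30 with the antibody, at 7.74, 5.96 and 5.93 with LPS, and at 5.68, 5.67 and 5.57 with both. All 6 libraries with LPS were below all 6 without. It fell by 0.59 with LPS (SE 0.095, adjusted p = 0.000289). The difference between both treatments and LPS was −0.18 (interval −0.38 to 0.03, adjusted p = 0.209), and these groups did not overlap; with TPM scaling it was −0.27 and passed (adjusted p = 0.0371).

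Scarb2 (chromosome 5, 92441314 to 92506833) stood at 12.0, 12.1 and 13.6 FPKM in untreated cells and at 11.1, 13.8 and 13.5 with the antibody, ranges that overlap. With LPS it stood at 7.24, 7.57 and 7.47, and with both at 7.82, 7.89 and 7.89. It fell by 0.68 with LPS (SE 0.085, adjusted p = 3.76e-05). Its difference between both treatments and LPS was 0.07 (interval −0.11 to 0.26, adjusted p = 0.553). With a replicate block and the trend on GC content and gene length taken out, that difference was 0.18 and passed (adjusted p = 0.0447).

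The order of the class B receptors therefore differed between groups, as levels per length. In untreated cells Scarb2 (12.6 ± 0.886 FPKM, SD, n = 3) and Scarb1 (10.3 ± 0.63) stood far above Cd36 (0.17 ± 0.0405). With LPS, Cd36 (5.86 ± 1.47), Scarb1 (6.54 ± 1.04) and Scarb2 (7.43 ± 0.168) had ranges that overlapped. Within each LPS library Cd36 was below Scarb2: 4.4 against 7.24, 5.85 against 7.57 and 7.33 against 7.47 in replicates 1 to 3. The place of Scarb1 among them varied between replicates. These differences between genes were not tested. With both treatments Cd36 (11.2 ± 0.974) was above Scarb2 (7.87 ± 0.0406) and Scarb1 (5.64 ± 0.0618), with no overlap.

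**Figure D1:**
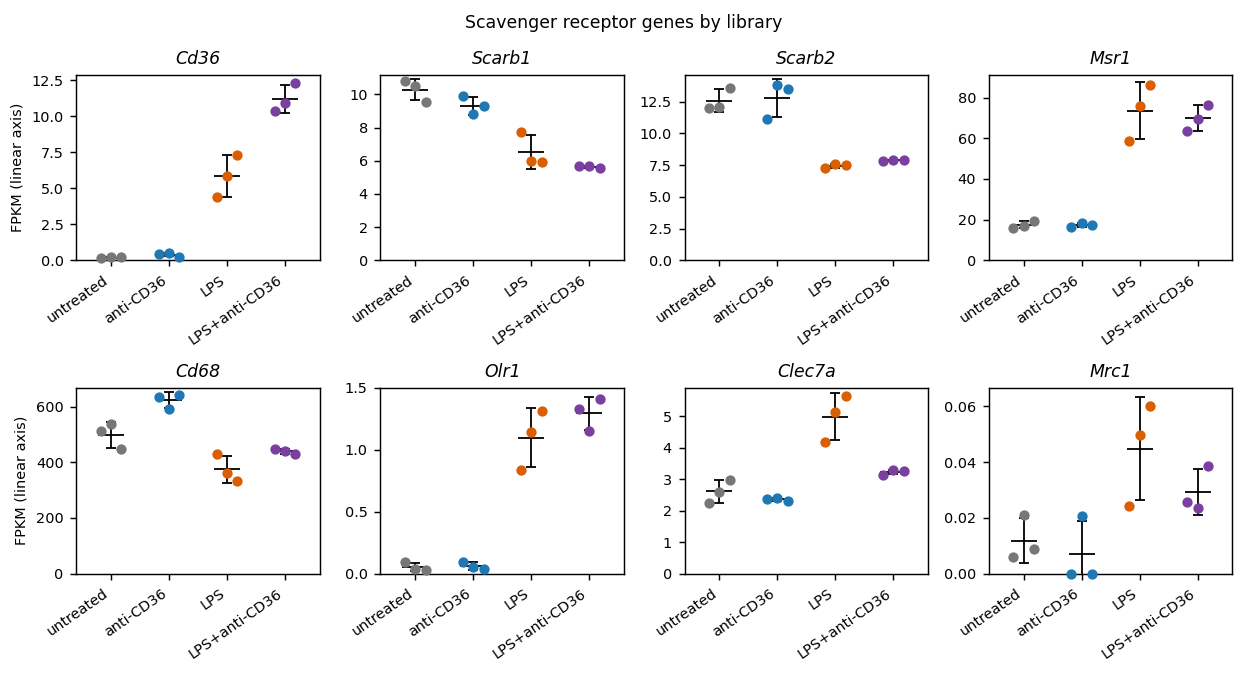
FPKM of 8 scavenger receptor genes (vertical, linear axis from 0, a scale for each gene) in the 4 groups (horizontal). Each point is 1 library and the bars give the mean and SD of 3. Cd36 runs from 0.123 in an untreated library to 12.3 with LPS and antibody, while Scarb1 and Scarb2 are lower in all libraries with LPS.

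Msr1, the gene of SR-A (chromosome 8, 39581685 to 39642673), had the largest gain in FPKM of the 10 between untreated and LPS libraries. It stood at 16.1, 16.9 and 19.4 FPKM untreated, at 16.5, 18.3 and 17.2 with the antibody, at 58.5, 76.0 and 86.4 with LPS, and at 63.7, 69.7 and 76.4 with both. The groups with LPS lay above those without it, and within each of these 2 pairs the groups overlapped. It rose by 2.00 with LPS (SE 0.13, adjusted p = 1.75e-07), to 4.21 times the untreated mean. For the antibody the difference was −0.01 without LPS (interval −0.30 to 0.28, adjusted p = 0.975) and −0.06 with it (interval −0.35 to 0.23, adjusted p = 0.769). With the trend on GC content and gene length taken out the first of these was 0.20 and passed (adjusted p = 0.0464). The second was then 0.14 and did not pass (adjusted p = 0.0549), but passed once the replicate block was added (adjusted p = 0.0434).

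Marco, the other class A member, was listed at 0 in all 12 libraries, while its relative gave 3232 to 23567 fragments per library. A limit of 3 fragments corresponds to at most 0.052 FPKM for Marco, by counting error alone.

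Cd68 (chromosome 11, 69664213 to 69666153) was the most abundant member in every group and made up 92% of the summed FPKM of the 10 in untreated cells and 78.8% with LPS. It stood at 514, 538 and 448 FPKM untreated and at 636, 591 and 644 with the antibody. With LPS it stood at 430, 362 and 333, and with both at 449, 440 and 432. The antibody groups lay above their partners without antibody, with no overlap, and the LPS group lay below the untreated one. It fell by 0.42 with LPS (SE 0.11, adjusted p = 0.00683). That call was lost with median-of-ratios scaling (−0.26, adjusted p = 0.117) and in a fit of the untreated and LPS libraries alone (adjusted p = 0.0542).

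The antibody differences of Cd68 did not pass: 0.32 without LPS (interval 0.09 to 0.56, adjusted p = 0.171) and 0.24 with LPS (interval 0.00 to 0.47, adjusted p = 0.142). The first passed with the replicate block (adjusted p = 0.045), and the second passed without LPS replicate 1 (0.34, adjusted p = 0.0216). With the trend on GC content and gene length taken out the second was −0.03. Over the 4 groups the share of Msr1 in the summed FPKM went from 3.25% untreated to 15.7% with LPS and 13% with both, and that of Cd36 from 0.0316% untreated to 2.08% with both.

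Olr1 and Clec7a are neighbours on chromosome 6, 12464 bases apart with 0 annotated genes between them, and both are lectin-like receptors. Olr1 (129485244 to 129507165) stood at 0.0931, 0.0372 and 0.0310 FPKM untreated and at 0.0958, 0.0557 and 0.0368 with the antibody. It stood at 0.840, 1.14 and 1.31 with LPS and at 1.33, 1.15 and 1.41 with both. These were 4 to 18 fragments per library without LPS and 97 to 245 with it, with no overlap between them. Olr1 rose by 0.99 with LPS (SE 0.093, adjusted p = 3.85e-06), to 20.3 times the untreated mean, and by 2.96 with 0.1 added in place of 1. The antibody difference was 0.01 without LPS (interval −0.19 to 0.22) and 0.14 with it (interval −0.07 to 0.34, adjusted p = 0.31).

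Clec7a (129461591 to 129472779) rose with LPS and was the 1 member called lower when the antibody was added to LPS. It stood at 2.26, 2.61 and 2.97 FPKM untreated and at 2.37, 2.40 and 2.30 with the antibody, which overlap. With LPS it stood at 4.17, 5.15 and 5.64, and with both at 3.15, 3.28 and 3.27. Every library with both treatments lay below every LPS library and above every untreated one. Clec7a rose by 0.73 with LPS (SE 0.099, adjusted p = 8.09e-05), to 1.91 times the untreated mean, and fell by 0.49 when the antibody was added to LPS (SE 0.099, adjusted p = 0.00836). Both calls held in all 22 alternative settings. Against the antibody alone, LPS with antibody was 0.33 higher (adjusted p = 0.0157), a call lost with TPM scaling (adjusted p = 0.0887) and without anti-CD36 replicate 3 (adjusted p = 0.0506).

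Mrc1 and Cd163, which are often used to mark alternatively activated macrophages, were at or near 0. Cd163 was listed at 0 in all 12 libraries, where 3 fragments would be at most 0.018 FPKM. Mrc1 (chromosome 2, 14229392 to 14332057) gave 2, 4 and 2 fragments untreated, 0, 4 and 0 with the antibody, 5, 10 and 13 with LPS, and 6, 6 and 12 with both. The libraries with LPS did not overlap those without, but the highest level was 0.0602 FPKM. With the filter on low values removed, the LPS difference of Mrc1 was 0.046 (adjusted p = 0.036).

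Of the 10 members, 7 reached 1 FPKM in at least 3 libraries and were tested, and Marco, Cd163 and Mrc1 were not. Cd36 and Olr1 passed that filter only through libraries with LPS, so they had to be higher there, and the counts that follow are no evidence for the members as a group. With LPS alone 4 of the 7 rose and 3 fell, where 49.8% of all 10276 genes tested were called, 16.6% higher and 33.1% lower. For all 7 the LPS and untreated libraries did not overlap, which held for 49.6% of all genes. The median difference of the 7 was 0.73 and that of all genes −0.14, and relative to the latter Cd68 was the least changed of the 7. With median-of-ratios scaling, which removes the shift of all genes, 50.7% of the called genes were higher, in place of 33.4%.

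With the antibody alone limma called 0 of the 7 (1 at an unadjusted p under 0.05, Cd68, against 19.2% of all genes) and 0.341% of all genes, with 42.9% of these higher, 32.4% with median-of-ratios scaling and 58.3% with TPM scaling. The groups did not overlap for 2 members, Cd36 and Cd68, against 22.7% of all genes. The median difference was 0.01, against −0.01 over all genes. When the antibody was added to LPS, 1 rose (Cd36) and 1 fell (Clec7a), against 15.5% of 10277 genes called, 7.35% higher and 8.14% lower, or 33.2% of called genes higher with TPM scaling in place of 47.4%. At an unadjusted p under 0.05 stood 3 members, the third being Cd68, against 33.8% of all genes. The groups did not overlap for 5 of the 7 members, all but Msr1 and Olr1, against 36.1% of all genes. The median of the 7 was 0.07 and that of all genes 0.02. This comparison shares its LPS libraries with the first. Among the RNA quality and housekeeping genes, Actb, which encodes beta-actin, rose here as well, from 2050 ± 247 to 3186 ± 127 FPKM (difference 0.64, adjusted p = 0.00363), and was called in all 22 alternative settings. Gapdh stood at 784 ± 125 and 697 ± 104 (−0.17, adjusted p = 0.476). The part of this difference between libraries in the values of the members and of the lists described next was not tested.

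Between LPS with antibody and antibody alone, 4 of the 7 rose and 3 fell, with 47.5% of all genes called, 16.3% higher and 31.3% lower. For all 7 the groups did not overlap, against 63.9% of all genes. The median of the 7 was 0.33 and that of all genes −0.12. With median-of-ratios scaling 50.3% of all called genes were higher, in place of 34.2%. The fold against antibody-treated cells was 29.6 for Cd36 (difference 3.15, adjusted p = 4.49e-09), 4.03 for Msr1 (1.95, adjusted p = 2.21e-07) and 20.6 for Olr1 (1.11, adjusted p = 1.39e-06). Scarb1 fell by 0.64, Scarb2 by 0.63 and Cd68 by 0.50 (adjusted p = 0.000167, 7.5e-05 and 0.00232).

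The interaction asks whether the LPS difference with antibody differs from that without it. Limma called 0 of the 7 members and 1.28% of all genes, and 2 members had an unadjusted p under 0.05, against 8.6% of all genes. For Cd36 it was 0.62 (interval 0.20 to 1.04, adjusted p = 0.239) and for Clec7a −0.39 (interval −0.70 to −0.09, adjusted p = 0.359). With the trend on GC content and gene length taken out both passed, at 0.58 (adjusted p = 0.0221) and −0.45 (adjusted p = 0.0296), and Cd36 passed without LPS replicate 3 (0.77, adjusted p = 0.0489). With 0.1 added in place of 1, the interaction of Cd36 was 0.14 (adjusted p = 1), so its size depends on how values near 0 are treated. For Msr1, Scarb1, Scarb2, Cd68 and Olr1 it lay between −0.08 and 0.12.

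**Figure D2:**
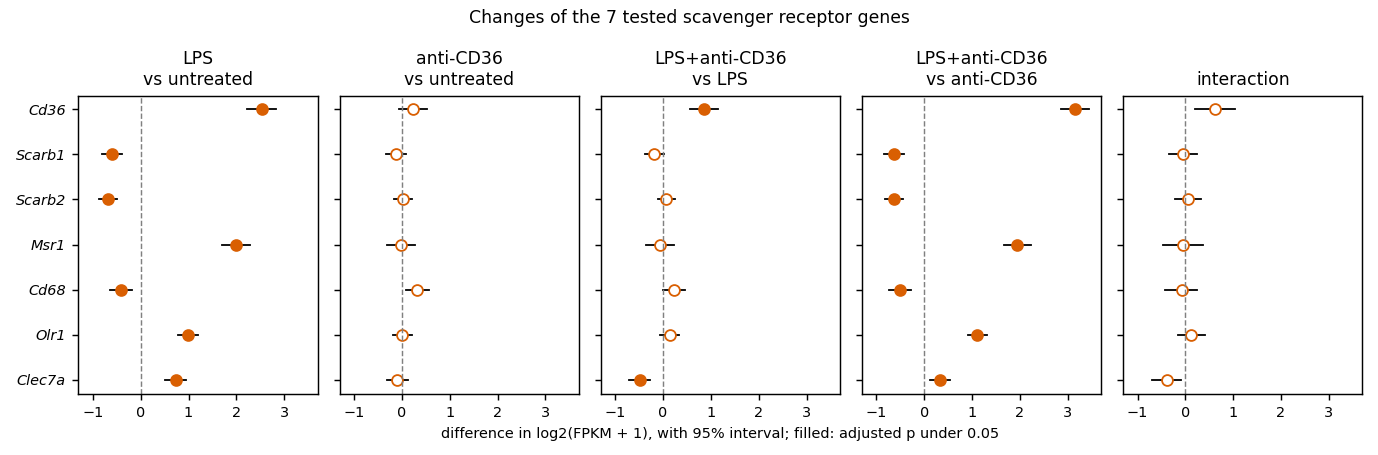
Differences in log2(FPKM + 1) (horizontal) of the 7 tested members (vertical) in 4 comparisons and the interaction. Points are estimates, lines their 95% intervals, and filled points passed an adjusted p under 0.05; in the comparison of LPS+anti-CD36 with LPS the filled points are Cd36 at 0.85 and Clec7a at −0.49.

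Among the LPS libraries, replicate 1 lay nearest to the untreated mean in 6 of the 7 tested members, all but Scarb2. Among libraries with both treatments, replicate 1 lay nearest to the mean of the antibody group in 5 of the 7. Without LPS replicate 1 all 7 tested members were still called with LPS, and the difference of Cd36 was 2.69, the top of a range from 2.38 over all left-out libraries.

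Other scavenger receptors were taken from a list of 17 covering the remaining classes, and 4 reached the level for a test. Beside this list and those that follow, 16.6% of all genes were called higher and 33.1% lower with LPS (median difference −0.14). With the antibody added to LPS these shares were 7.35% and 8.14% (median 0.02), and with the antibody alone 0.341% were called. The counts and medians of the lists were not tested against these values. With LPS 2 rose and 2 fell: Cd44, a hyaluronan receptor, rose from 17.8 ± 2.6 to 45 ± 5.97 FPKM and Cxcl16, a membrane chemokine that binds oxidised LDL, from 3.46 ± 0.373 to 6.78 ± 1.35. The endocytic receptor Lrp1 fell from 27.6 ± 2.16 to 19.8 ± 2.06, and the collectin Colec12 from 22.7 ± 4.74 to 14.1 ± 3.19. With the antibody added to LPS, Lrp1 fell further, to 13.1 ± 0.776 (difference −0.55, adjusted p = 0.00269), and Cxcl16 rose to 9.49 ± 1.04 (0.44, adjusted p = 0.0472). With the antibody alone 0 of the 4 were called, though Lrp1 stood at 23.7 ± 0.889, below every untreated library (limma adjusted p = 0.248). The median of the 4 was 0.16 with LPS and −0.24 with the antibody added.

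Of 20 partners and signalling proteins of CD36, 19 were tested. With LPS 11 rose and 4 fell (median 0.33): the fatty acid carrier Fabp4 rose from 1.51 ± 0.39 to 18.8 ± 0.757 FPKM, the integrin chain Itgb2 from 49 ± 3.93 to 95.3 ± 2.79, and the Src-family kinases Lyn (29.1 ± 4.98 to 76.4 ± 12.8) and Src (0.178 ± 0.068 to 0.9 ± 0.153) as well. Src passed the filter only through libraries with LPS. When the antibody was added 2 rose and 1 fell (median 0.09). Itgb2 rose to 119 ± 1.66 and Zdhhc4, a palmitoyltransferase that acts on CD36, from 6.22 ± 0.738 to 8.49 ± 0.43. Tlr4, the LPS receptor, fell from 7.07 ± 1.7 to 3.98 ± 0.513. Zdhhc4 and Tlr4 were also called lower with LPS alone, from 8.74 ± 1.54 and 10.3 ± 2.14 untreated (limma adjusted p = 0.0111 and 0.0297). With the antibody alone Tlr4 stood at 7.42 ± 0.966, below every untreated library, and was not called (adjusted p = 0.226). The TLR2 and TLR6 genes, whose products pair with CD36, were not called when the antibody was added to LPS. Tlr2 stood at 50.4 ± 0.692 against 56 ± 5, and Tlr6 at 4.28 ± 0.391 against 5.03 ± 1.09.

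Of 14 transcription factors known to control CD36 or SR-A, 11 were tested. Pparg, the best known activator of Cd36, was not tested: its highest group mean was 0.0117 FPKM, in untreated cells. With LPS 3 rose and 2 fell (median −0.04). Jun, an AP-1 subunit, rose from 6.46 ± 0.239 to 24.3 ± 4.03, Ets2 from 43.5 ± 2.27 to 104 ± 6.33 and Cebpb from 8.79 ± 1.42 to 20.1 ± 9.23, while Cebpa fell from 10.1 ± 1.26 to 4.23 ± 1.15. With the antibody added, Jun fell to 15.1 ± 1.3 (−0.64, adjusted p = 0.00363) and Stat6 from 34.2 ± 1.75 to 28.7 ± 0.754, and Cebpa rose to 6.13 ± 0.343 (median of the list −0.15). Jun was the 1 gene of these lists whose interaction passed (−1.01, adjusted p = 0.00636). With the antibody alone Jun stood at 8.69 ± 0.721, above every untreated library, and was not called. Nfe2l2, the oxidative stress factor NRF2, was also lower with LPS alone, at 25.2 ± 3.94 against 34.4 ± 5.07 untreated (−0.44, adjusted p = 0.0137). Between both treatments and the antibody alone, Nfe2l2 fell from 33.1 ± 1.54 to 22 ± 1.86. Its interaction was −0.13 (interval −0.53 to 0.27) and did not pass.

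All 12 listed genes of dectin-1 signalling were tested, and with LPS 6 rose and 3 fell (median 0.22). The adaptor Card9 rose from 17.9 ± 0.841 to 28.3 ± 1.17 FPKM and the kinase Syk from 6.67 ± 0.808 to 9.57 ± 0.322, while the transcription factor Nfatc1 fell from 18.3 ± 0.909 to 7.44 ± 0.968. When the antibody was added 0 rose and 1 fell (median −0.02), the adaptor Bcl10, from 18.8 ± 2.57 to 13.8 ± 1.7. Plcg2, which acts below Syk, fell between the antibody alone (34.3 ± 1.04) and both treatments (24.5 ± 0.462). Without the antibody it stood at 31.3 ± 1.63 untreated and at 24.3 ± 2.33 with LPS.

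Of 16 C-type lectin receptors 8 were tested, 3 of which (Clec4n, Clec2d and Clec4a2) passed the filter only through the libraries in which they were high. With LPS 5 rose and 2 fell (median 0.63). Clec4e, which encodes Mincle, a receptor for mycobacterial glycolipid, rose from 12.4 ± 0.712 to 103 ± 14.1 FPKM, and Clec2d from 0.565 ± 0.117 to 8.03 ± 1.58. Clec4n, the gene of dectin-2, rose from 0.0893 ± 0.0585 to 1.11 ± 0.294 and Clec4a2 fell from 1.47 ± 0.419 to 0.422 ± 0.106. When the antibody was added 1 rose and 0 fell (median 0.27): Clec4n reached 2.28 ± 0.172 (0.65, adjusted p = 0.00313), a direction opposite to that of Clec7a, its fellow receptor for fungal sugars.

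Of 9 partners of SR-BI, LIMP-2 and CD68, 8 were tested. With LPS 1 rose and 3 fell (median −0.07): the cholesterol exporter Abca1 rose from 0.735 ± 0.329 to 1.78 ± 0.392 FPKM, while its relative Abcg1 fell from 16.3 ± 0.53 to 6.72 ± 0.838, Apoe from 2.48 ± 0.965 to 0.607 ± 0.138 and the lysosomal Lamp1 from 329 ± 20.1 to 201 ± 17.7. Abca1 and Apoe passed the filter only through the libraries in which they were high. With the antibody added to LPS 1 rose and 3 fell (median −0.17). Abcg1 fell to 4.05 ± 0.283 (−0.61, adjusted p = 0.00121) and Abca1 to 0.767 ± 0.0592. In these 5 lists as well, 0 genes were called with the antibody alone. Abca1 then stood at 0.259 ± 0.0707 and Abcg1 at 13.7 ± 0.647, both below every untreated library.

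The lower levels of Zdhhc4, Tlr4 and Nfe2l2 with LPS alone were not followed through left-out libraries. The other calls named from these lists with LPS alone were kept without any single library, but several of those with the antibody added were not. Lrp1, Jun and Abcg1 held in all 22 settings. Cxcl16 and Cebpa were lost in 14 settings each, Zdhhc4 in 12, Itgb2 and Stat6 in 9 each, Tlr4 in 6, Bcl10 in 4, and Clec4n and Abca1 in 1 each. Left-out libraries that ended calls (Cxcl16 unless stated) were untreated replicate 1 (adjusted p 0.0516) and replicate 2 (also Zdhhc4, Stat6 and Cebpa, up to 0.0724), anti-CD36 replicate 1 (Zdhhc4 and Cebpa, not Cxcl16, up to 0.0574), replicate 2 (also Zdhhc4, Stat6 and Cebpa, up to 0.0585) and replicate 3 (those and Itgb2, up to 0.0738). Without LPS replicate 2 adjusted p reached 0.173, and Tlr4, Itgb2, Zdhhc4, Stat6, Cebpa, Bcl10 and Abca1 were lost too. Without LPS replicate 3 it reached 0.179, and Tlr4, Itgb2, Zdhhc4 and Cebpa were lost. Without LPS+anti-CD36 replicate 1, 2 or 3 it reached 0.162, 0.145 and 0.12, with Itgb2, Zdhhc4, Stat6 and Cebpa lost each time, Tlr4 without replicate 1 or 2, and Bcl10 without replicate 2 or 3.

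**Figure D3:**
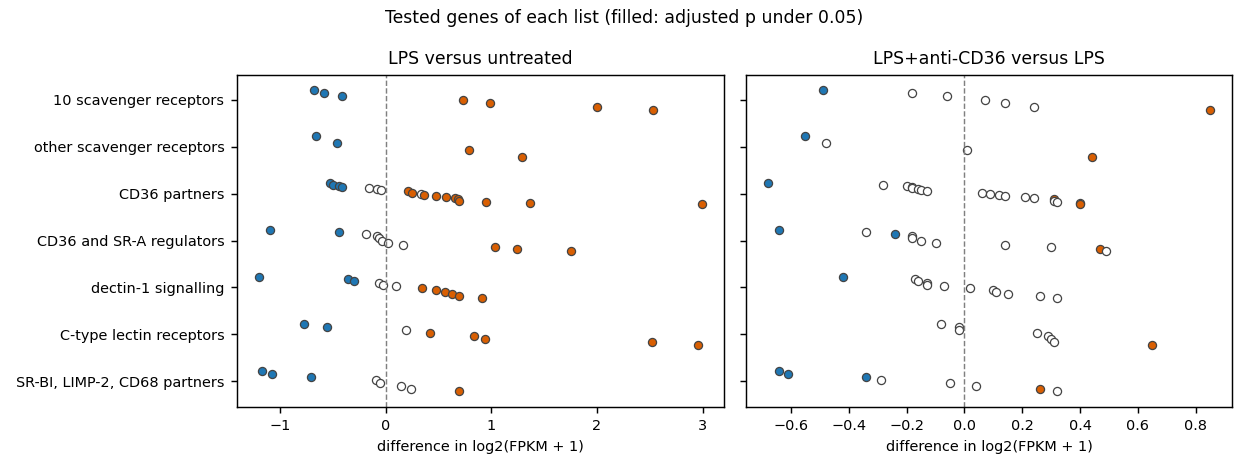
Differences in log2(FPKM + 1) (horizontal) for LPS versus untreated (left) and LPS+anti-CD36 versus LPS (right); each point is 1 tested gene of a list (vertical), filled where the adjusted p was under 0.05. The 10 scavenger receptors (7 tested) spread from −0.68 to 2.53 on the left, and on the right 2 of them are filled.

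The genes whose 4 group means of log2(FPKM + 1), each centred on its own average, lay closest to those of Cd36 were found among 9688 tested genes, leaving out predicted genes and clones. Pdpn, the gene of the mucin-like protein podoplanin, was nearest with a root mean square difference of 0.06: it stood at 0.106 ± 0.0281 FPKM untreated, 0.167 ± 0.0902 with the antibody, 5.16 ± 0.324 with LPS and 10.1 ± 1.27 with both. The next were the kinase Plk3 (0.10), the chemerin-binding receptor Ccrl2 (0.11), the interferon-induced Oasl1 (0.13) and Crybg2 (0.15). Plk3 ran from 4.05 ± 0.156 untreated to 32.3 ± 4.22 with LPS and 52.3 ± 1.48 with both, and Ccrl2 from 0.283 ± 0.0997 to 7.28 ± 1.3 and 11.1 ± 1.29. The likeness holds on this scale, where the added 1 holds down changes from near 0. As ratios of mean FPKM, LPS gave 34.4 for Cd36 and 48.8 for Pdpn. The ratio was 25.7 for Ccrl2, 21.9 for Crybg2, 7.96 for Plk3 and 7.37 for Oasl1. Likeness with another added value was not tested. For Clec7a the nearest 3 were Map2k1, the MAP kinase kinase MEK1, Pstpip2, a membrane-binding adaptor, and Parp11, each at 0.03. Map2k1 stood at 63.4 ± 1.41 with LPS and 44.8 ± 1.83 with both, against 39.7 ± 0.266 untreated. These likenesses rest on 4 group means from 12 libraries, the genes were picked for them, and they carry no test.

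**Figure D4:**
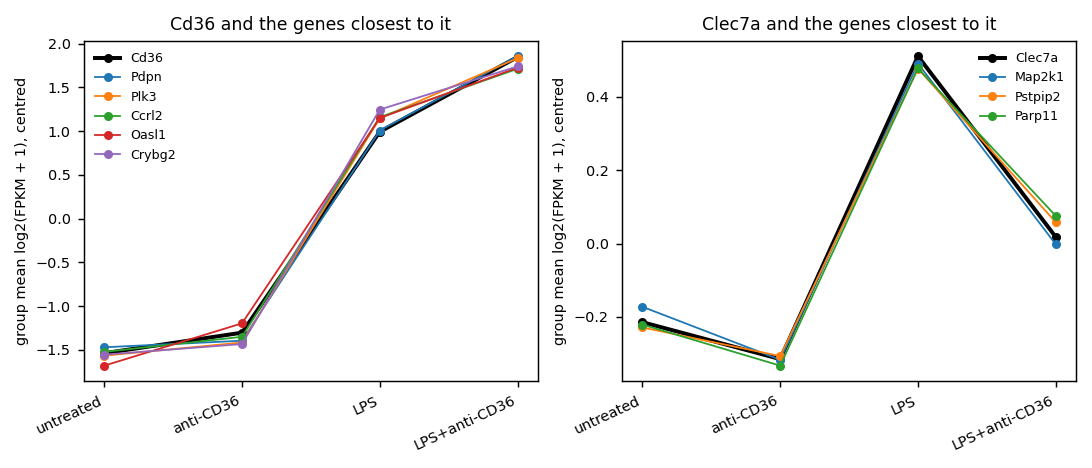
Group means of log2(FPKM + 1), centred on each gene's own average (vertical), across the 4 groups (horizontal) for Cd36 with its 5 closest genes (left) and Clec7a with its 3 closest (right). The Cd36 set climbs at each step with LPS, while the Clec7a set peaks with LPS alone.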

How the data were processed

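RNA from 12 libraries of RAW264.7 cells was sequenced, 3 per group, and 1 table with a column per library was used. Its values are FPKM computed by the authors. HISAT2 2.0.5 was used per the submitters' processing notes, which list mm39 and hg38 as builds but give neither a role. The counting tool, annotation and filters are not given in the sources used here. Of 31801 entries, 82 that repeated a symbol were left out, keeping the entry of highest mean.

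Depth was recovered from the steps of the values with Python 3.11.15 and exon-union lengths of GENCODE M21: 94.5% of 17645 genes were whole fragments in every library, within 0.005, and so were all 10 members. In untreated and antibody libraries the Il6 values equalled those of another gene, Gm10874, so Il6 was tested only in LPS+anti-CD36 versus LPS.

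A gene was tested where 3 or more libraries reached 1 FPKM, on log2(FPKM + 1), with limma 3.58.1 in R 4.3.3: a single model held all 4 group means, with an intensity trend. Benjamini-Hochberg adjustment ran over the whole table in each comparison, and an adjusted p under 0.05 was a call. On simulated LPS versus untreated data over 10093 genes, 52% of 50 genes changed 1.5-fold and 90% of 50 changed 2-fold were recovered. Of 50 changed 1.25-fold, 6% were recovered, and 11 unchanged genes were called. Far fewer genes were changed in the simulation than were called with LPS in the data, so recovery in the data can differ. The antibody comparisons were not simulated.

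The alternatives were another pseudocount, 2 other filters, 2 scalings, a fit of the 2 groups compared, no intensity trend, the replicate number as a block, removal of the GC content and gene length trend, that removal with the block, and leaving out each library. The members and gene lists were chosen with earlier results of these data known. Named genes were all members, up to 4 called genes of smallest adjusted p per list and comparison, and the genes closest to Cd36 and Clec7a by group means; some genes counted in the lists are not reported here by name; Tlr2, Tlr6, Pparg and Mertk were added after their values were seen. Of the list of RNA quality genes, 4 of 8 symbols were matched and 3 tested: with LPS Actb rose by 0.75 and Hspa1b fell by 1.44, and with the antibody added to LPS Actb rose by 0.64. Of 9 tested macrophage markers 5 rose and 2 fell with LPS, where 16.6% of all genes were called higher and 33.1% lower. With the antibody added to LPS 0 of the 9 were called, against 15.5% of all genes.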

Additional observations from a re-analysis of the deposited data

How the results depend on the processing

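Up to 22 alternatives were run for each result of the members, but not for every call named from the lists. Of 758 alternative values of members, 717 kept direction and side of the threshold, 4 lost a call and 11 gained one in the same direction. The other 26 took the other sign, all in differences that had not passed, and 3 of these 26, all of Msr1, passed with the new sign. The number of members called with the antibody alone was 0 and became 1 with the replicate block, 2 with the trend on GC content and gene length taken out and 2 with both. With the antibody added to LPS it was 2 and became 4 with the replicate block and that trend taken out. In the interaction it was 0, became 2 with that trend taken out, with or without the replicate block, and ran from 0 to 1 when single libraries were left out. Over all genes the calls with the antibody alone went from 35 to 12 with TPM scaling, 0 with the 2 groups alone, 1164 with the replicate block, 391 without the trend and 969 with both, and from 1 to 131 over left-out libraries, the highest without LPS replicate 1. With the antibody added to LPS they went from 1592 to 940 with the 2 groups alone, 3646 with the replicate block, 2421 without the trend and 3520 with both. Leaving out a library gave 586 (LPS replicate 2) to 3980 (LPS replicate 1). In the interaction they went from 132 to 212, 358 and 522 under the last 3 of these settings, and from 77 to 161 over left-out libraries. The cause was not tested.

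Members took the other sign as follows. With the antibody alone Msr1 was 0.02 with median-of-ratios scaling and 0.20 with the trend taken out, with or without the replicate block, and Scarb2 was −0.06 with TPM scaling. With the antibody added to LPS, Scarb2 was −0.03 with TPM scaling, and with the trend taken out, with or without the block, Msr1 was 0.14 and Cd68 −0.03. Over left-out libraries the antibody difference ran from −0.06 to 0.07 for Msr1, −0.03 to 0.11 for Scarb2 and −0.01 to 0.04 for Olr1, and that of Msr1 with LPS present from −0.21 to 0.06. The interaction ran from −0.21 to 0.07 for Msr1, −0.11 to 0.06 for Scarb1, −0.04 to 0.10 for Scarb2 and −0.17 to 0.02 for Cd68. Replicate numbers are shared between groups, and the labels do not tie them to a batch. Of 18 same-number pairs, 10 correlated by more than 0.1 in their deviations (−0.32 to 0.81), and 7 of 12 libraries correlated best with their own number. Pairs of different numbers ran from −0.84 to 0.69, and whether the numbers pair libraries was not tested. Depth limits Cd36 and Olr1 without LPS, and Mrc1, Marco and Cd163 in all libraries.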
